A study of Mus musculus with 6 samples.

Results

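The clustered histone genes are the protein-coding genes whose symbols begin with Hist1h, Hist2h, Hist3h or Hist4h. By this rule, 67 of the 54532 genes in the count table were members: 54 lay on chromosome 13, 10 on chromosome 3, 2 on chromosome 11 and 1 on chromosome 6. Of these, 64 were treated as replication-dependent genes and 3 as testis variants, namely Hist1h1t, Hist1h2ba and Hist1h2aa. RNA was measured in leptotene/zygotene spermatocytes, germ cells that have just entered meiosis, after flow sorting of Hoechst-stained testis cells from mice at 12 days postpartum (dpp). The 3 control libraries came from littermate controls, labelled wild type. The 3 Eef1g-cKO libraries came from males on a C57BL/6J background in which a floxed Eef1g, which codes for part of the elongation factor eEF1 in protein synthesis, was deleted by Stra8-GFPCre. This Cre acts only in germ cells and is active from 3 dpp, beginning in type A1 spermatogonia, so recombination can begin before the cells reach meiosis. Messenger RNA was copied and amplified as full-length cDNA by a kit for small inputs, and the labels name the molecule as polyA RNA.

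Replication-dependent histone genes supply the core histones H2A, H2B, H3 and H4 and the linker histone H1 that package newly copied DNA, and are transcribed mainly in S phase. Their mRNAs usually end in a conserved stem-loop in place of a poly(A) tail, which the stem-loop binding protein SLBP recognises, so methods that prime on poly(A) capture them poorly. In the male germ line, testis variants such as H1t (Hist1h1t), TH2B (Hist1h2ba) and TH2A (Hist1h2aa) enter chromatin during spermatogenesis, before transition proteins and protamines take over in spermatids.

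The stem-loop was searched in the annotated GENCODE transcripts, because it separates the part of a histone mRNA that is normally kept from any sequence beyond it. A match to the 16-base histone stem-loop, a stem of 6 base pairs and a loop of 4 bases, was found in 46 of 67 members and took 8 forms. The 4 sequences shown are those of the most changed H1 gene, the testis H1 gene and the 2 tested H4 genes, written 5′ to 3′ on the transcript strand with the stem-loop in capitals and 5 bases on either side.
Hist1h1e: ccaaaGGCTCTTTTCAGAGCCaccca
Hist1h1t: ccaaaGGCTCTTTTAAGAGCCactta
Hist1h4d: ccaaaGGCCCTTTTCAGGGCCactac
Hist1h4i: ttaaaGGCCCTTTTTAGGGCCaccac
They lie, in GRCm38, at chr13:23621777-23621802 on the minus strand, chr13:23696520-23696545 on the plus strand, chr13:23581945-23581970 on the plus strand and chr13:22040961-22040986 on the minus strand. The form of Hist1h1e was the commonest and was found in 26 members of types H1, H2A, H2B and H3. The form of Hist1h1t was shared by 6 members, the form of Hist1h4d by 7 members, all of them H4 genes, and the form of Hist1h4i by 2. Among the 21 members without a match, 13 had no annotated sequence beyond the coding region, Hist1h2ba and Hist1h2aa among them, so the window could not have held the motif.

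Few members had many reads. Library totals ranged from 763133 to 2617648 reads, and 3 reads, taken as the detection floor, corresponded to 1.18 to 4.63 CPM (reads per 1000000 reads of a library after TMM scaling), highest in Eef1g-cKO replicate 3. Intervals and floors cover counting error only, since PCR copies of a molecule count as separate reads. Eef1g had 222, 226 and 212 CPM in the control and 139, 151 and 119 CPM in the Eef1g-cKO libraries, and fell by 0.68 on the log2 scale (SE 0.20, edgeR adjusted p = 0.029). All 10 leptotene/zygotene markers were tested and 6 rose, whereas 5 of 6 tested spermatogonial markers, 3 of 5 tested Sertoli markers and 2 of 3 tested interstitial markers fell at an adjusted p under 0.05 in edgeR. By the same rule 7.8% of all 8513 tested genes rose and 6.01% fell. The summed level of the spermatogonial list was 1510 to 1680 CPM in control and 696 to 869 CPM in Eef1g-cKO libraries, and its part in the results below was not tested. In bulk samples, fewer cells of a type and less RNA per cell cannot be told apart. The labels do not say that replicates came from separate animals, so p-values measure the spread between these samples only.

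Reads of the 67 members added up to 65, 197 and 218 in control replicates 1 to 3, and to 219, 475 and 151 in the corresponding Eef1g-cKO replicates. This gave 49.6, 103 and 122 CPM in control and 177, 186 and 233 CPM in Eef1g-cKO libraries, and the groups did not overlap. Without Hist1h1e the sums were 48.1, 95.5 and 121 CPM against 146, 141 and 120 CPM, and the groups overlapped. Of the members, 46 had at least 1 read and 21 had none, 24 had 1 to 9 reads over all 6 libraries, and 22 had 10 or more. The 15 most abundant members held 86.0% of the 1325 reads.

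**Figure D1:**
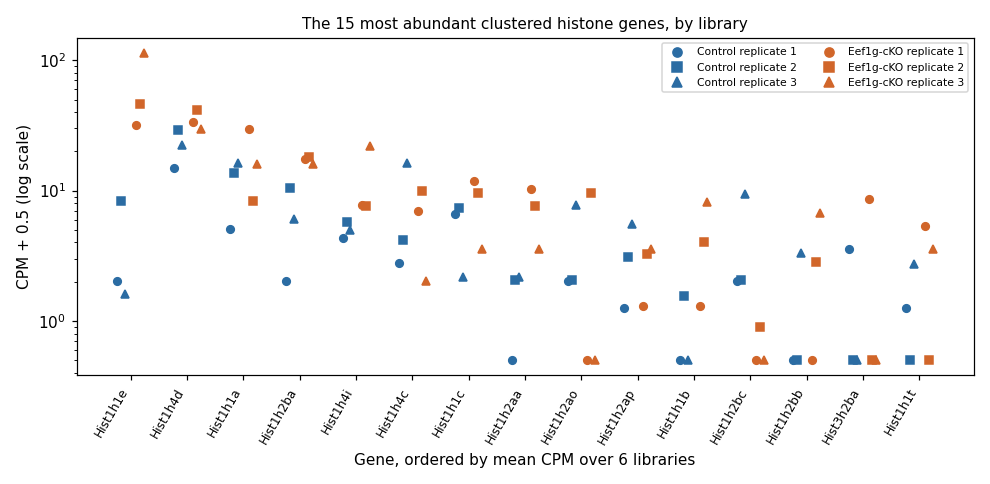
CPM plus 0.5 on a log axis for the 15 clustered histone genes with the highest mean CPM, with 1 point for each control (blue) and Eef1g-cKO (orange) library. Hist1h1e spans 1.12 to 7.87 CPM in control and 31.5 to 113 CPM in Eef1g-cKO libraries, and most genes to the right of Hist1h1c have libraries at 0.

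Only 6 members had enough reads to pass the low-count filter: Hist1h1e, Hist1h1a and Hist1h1c (linker histones), Hist1h4d and Hist1h4i (H4), and the testis variant Hist1h2ba. Of the 5 replication-dependent genes among them, 1 was called higher in Eef1g-cKO and 0 lower by edgeR (adjusted p under 0.05 with a log2 fold change beyond 1 in either direction), where 3.42% of all 8513 tested genes were called higher and 4.96% lower. No further replication-dependent gene passed without the fold change limit, a rule by which 7.8% of tested genes were higher and 6.01% lower. All 5 had a positive log2 fold change, so 0 were lower at an unadjusted p under 0.05, and DESeq2 also called 0 lower. In the edgeR fit without the filter, Hist1h2bc (log2 fold change -3.88) and Hist1h3c (-4.99), both with few reads, were lower at that unadjusted limit. Hist1h1e (4.06) was the only replication-dependent gene higher at that limit in this fit, and it alone passed after adjustment. The 6 tested members are not all members: the other 61 had too few reads, and most of the 6 passed the filter through the Eef1g-cKO libraries. A gene needed 3 libraries at 6.7 unscaled CPM or more. Hist1h4i reached this in 0 control and 3 Eef1g-cKO libraries, Hist1h1e and Hist1h2ba in 1 and 3, Hist1h1c in 1 and 2, Hist1h1a in 2 and 3, and Hist1h4d in all libraries. A filter passed in this way favours genes that are higher in Eef1g-cKO, so counts and medians over the tested members are descriptions only. Among the 6 tested members, CPM values did not overlap between genotypes in 4 with Eef1g-cKO higher (Hist1h1e, Hist1h4d, Hist1h2ba and Hist1h4i) and in 0 with Eef1g-cKO lower. The shares of all tested genes were 16.4% and 18.1%. Over all 67 members the counts were 5, with Hist1h2aa added, and 2 (Hist1h2bc and Hist1h3c). The 67 include 21 without a read, which cannot separate, so these counts are not to be set beside the shares of tested genes. The median log2 fold change of the 5 tested replication-dependent genes was 0.74, beside a median of -0.05 over all tested genes.

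Hist1h1e, which encodes a linker histone common in somatic cells, was the member that rose. It lies at chr13:23620629-23622558 on the minus strand (ENSMUSG00000051627) and had 2, 15 and 2 reads in the control replicates, compared with 39, 116 and 73 reads after deletion of Eef1g. In CPM these were 1.53, 7.87 and 1.12 against 31.5, 45.5 and 113. Every Eef1g-cKO library lay above every control library, and the means were 3.51 ± 3.79 and 63.3 ± 43.4 CPM (SD, n = 3). This was a log2 fold change of 4.04 ± 0.67 (SE) with an edgeR adjusted p of 0.000804. The gene took 0.917% to 7.61% of all member reads in control libraries and 17.8% to 48.3% in Eef1g-cKO libraries.

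The size of this rise depended on single libraries while its call did not. The highest value came from Eef1g-cKO replicate 3, which was the shallowest library and had the highest share of rRNA gene reads (9.23%, against 2.73% to 6.29% in the others). Without this library the log2 fold change was 3.41 (edgeR adjusted p = 0.00124). Without control replicate 2, which left control libraries of 2 reads each, it was 5.49 (edgeR adjusted p = 0.00033), a size that then depends on the prior count. A further limit is the annotation, since 496 of the 1930 exonic bases of Hist1h1e (25.7%, chr13:23620629-23621124) also belong to exons of Hist1h2be or of the pseudogene Gm11398 on the same strand. Hist1h2be had 4 reads, all in control replicate 3, and Gm11398 had 0 reads. The counting of reads in such overlaps is not given in the sources used here.

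The other linker histone genes did not pass the test, or were not tested. Hist1h1a, a linker histone of replicating cells, had 4.58, 13.1 and 15.7 CPM in control and 29.1, 7.84 and 15.4 CPM in Eef1g-cKO libraries. The groups overlapped, and its fold change (log2 0.61 ± 0.67, SE; adjusted p = 0.598 in edgeR) became 0.00 without Eef1g-cKO replicate 1. Hist1h1c, a linker histone that is also made outside S phase, had 6.11, 6.82 and 1.68 CPM against 11.3, 9.02 and 3.09 CPM, which again overlapped (log2 fold change 0.74 ± 0.87, SE; adjusted p = 0.63 in edgeR). Hist1h1b was below the filter, with 0, 2 and 0 reads in control and 1, 9 and 5 reads in Eef1g-cKO libraries. Hist1h1d had 1 read in all, in control replicate 2.

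Both tested H4 genes encode the core histone H4 and had higher values in Eef1g-cKO that did not pass the test. Hist1h4d had 14.5, 28.9 and 21.8 CPM in control and 33.2, 40.8 and 29.3 CPM in Eef1g-cKO libraries. The groups did not overlap, although the lowest Eef1g-cKO value lay just above the highest control value, and the log2 fold change was 0.67 ± 0.44 (SE; adjusted p = 0.345 in edgeR). Hist1h4i had 3.82, 5.25 and 4.48 CPM against 7.28, 7.06 and 21.6 CPM, again without overlap, and differed by 1.31 ± 0.83 on the log2 scale (SE; adjusted p = 0.327 in edgeR). Without Eef1g-cKO replicate 3, which held its highest value, the difference was 0.68. Hist1h4c, a further H4 gene among the most abundant members, was below the filter, with 3, 7 and 28 reads in control and 8, 24 and 1 reads in Eef1g-cKO libraries.

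No testis variant passed the test, although Hist1h2ba and Hist1h2aa had higher values in every Eef1g-cKO library. Hist1h2ba encodes TH2B, an H2B variant that is made in spermatocytes, and lies at chr13:23933773-23934156 on the minus strand (ENSMUSG00000050799). It had 2, 19 and 10 reads in control and 21, 45 and 10 reads in Eef1g-cKO libraries. In CPM these were 1.53, 9.97 and 5.60 against 17.0, 17.6 and 15.4, so that the Eef1g-cKO libraries were close to each other and all lay above the controls. Means were 5.70 ± 4.22 and 16.7 ± 1.13 CPM (SD, n = 3). On the log2 scale the fitted difference was 1.51 ± 0.72 (SE), and its edgeR adjusted p was 0.18. Its unadjusted edgeR p was 0.0493, and 0.0471 in the fit without the filter, so it was under 0.05 before adjustment only.

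Hist1h2aa encodes TH2A, the H2A partner of TH2B, and lies head to head with Hist1h2ba at chr13:23934462-23934851 on the plus strand, 305 bases away. It had 0, 3 and 3 reads in control and 12, 18 and 2 reads in Eef1g-cKO libraries, or 0, 1.57 and 1.68 against 9.70, 7.06 and 3.09 CPM. The groups did not overlap, but every control library and Eef1g-cKO replicate 3 were at or under the floor. The gene did not pass the filter. The ratio of pooled levels, Eef1g-cKO over control, was 6.02 (95% exact Clopper-Pearson interval 2.48 to 17.6, from 32 and 6 reads), an interval that does not hold the spread between libraries. In an edgeR fit without the filter the adjusted p was 0.385. Its exon overlaps Gm44344 on the opposite strand, so without strand the reads of both cannot be told apart.

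Hist1h1t encodes H1t, the linker histone that appears in pachytene spermatocytes, and lies at chr13:23695814-23696725 on the plus strand. It had 1, 0 and 4 reads in control and 6, 0 and 2 reads in Eef1g-cKO libraries. Values of both groups spread from 0 to a few CPM and overlapped, and the ratio of pooled levels was 1.80 (95% exact Clopper-Pearson interval 0.521 to 7.01, from 8 and 5 reads). A difference was not detectable at this depth (adjusted p = 0.686 in edgeR without the filter). Of the 8 later (pachytene) markers, Acr and Hspa1l had 0 reads over all libraries, Pgk2 2 and Ccna1 8. Piwil1 had 87 reads, Ldhc 114, Adam2 123 and Zpbp 279. Piwil1 fell, with 34, 22 and 30 reads against 0, 1 and 0 (log2 fold change -5.94, edgeR adjusted p = 0.00142). Zpbp was higher but did not pass (log2 fold change 1.34, edgeR adjusted p = 0.086), and Ldhc and Adam2 overlapped between genotypes. The summed level of the 8 markers was 63.3 to 64.1 CPM in control and 21.6 to 85.5 CPM in Eef1g-cKO libraries.

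**Figure D2:**
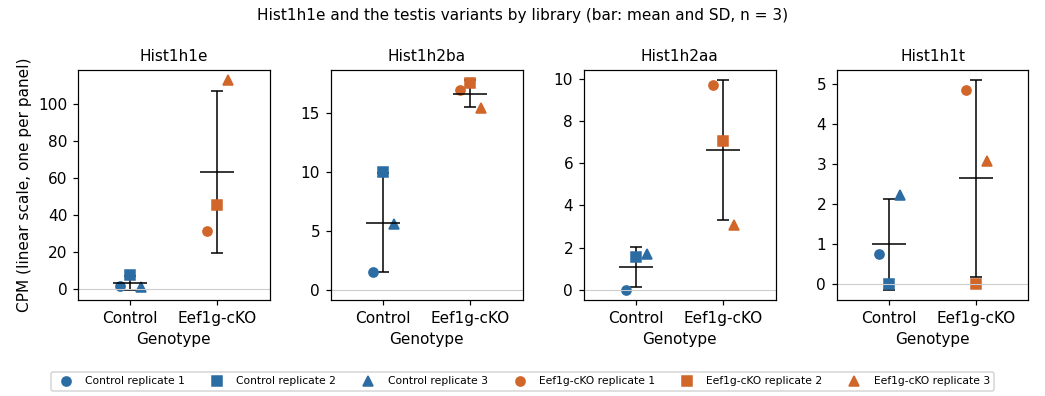
CPM of Hist1h1e and the 3 testis variants in each library, on a linear axis of its own in each panel, with the mean and SD of each genotype as bars (n = 3). Hist1h1e, Hist1h2ba and Hist1h2aa have no overlap between genotypes, and both genotypes include a library at 0 for Hist1h1t.

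Testis variants and replication-dependent genes were set side by side without a test of their difference. The log2 fold change of Hist1h2ba (1.51) lay between those of Hist1h1e (4.04) and Hist1h4i (1.31), and the other replication-dependent genes had 0.61 to 0.74. Levels per kilobase of gene length were compared within each genotype, for the 6 members with the highest level over all libraries. In control, Hist1h4d had 19.1 ± 6.31 CPM per kb, Hist1h1a 15 ± 7.84, Hist1h2ba 14.8 ± 11, Hist1h4i 6.21 ± 0.987, Hist1h2aa 2.78 ± 2.41 and Hist1h1e 1.82 ± 1.96 (SD, n = 3). In Eef1g-cKO, Hist1h2ba had 43.5 ± 2.94 CPM per kb, Hist1h1e 32.8 ± 22.5, Hist1h4d 30.3 ± 5.11, Hist1h1a 23.6 ± 14.5, Hist1h2aa 17.0 ± 8.54 and Hist1h4i 16.5 ± 11.5. Neighbours in these orders overlapped between libraries, except Hist1h4i and Hist1h2aa in control. Among these 6 the order of levels differed between the genotypes, with Hist1h1e the lowest in control and next to the highest in Eef1g-cKO. The 6 were chosen by level over all libraries, so a member could enter through its Eef1g-cKO values. Hist1h4c, outside the 6, had a control mean of 7.21 CPM over 820 bases, against 3.51 CPM over 1930 bases for Hist1h1e. The order is therefore a description only. It also depends on the annotation, because the models of Hist1h2ba and Hist1h2aa hold the coding region only and those of Hist1h1e and Hist1h4d run past the stem-loop.

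Some members below the filter had most of their reads in control libraries. Hist1h2bc, an H2B gene, had 2, 3 and 16 reads in control and 0, 1 and 0 reads in Eef1g-cKO libraries, with a pooled ratio of 0.0537 (95% exact Clopper-Pearson interval 0.0013 to 0.334). Without the filter its edgeR adjusted p was 0.328, and 16 of its 22 reads came from control replicate 3. Hist1h3c, an H3 gene outside the 15 most abundant members and named after its values were seen, had 1, 4 and 8 reads in control and 0 in every Eef1g-cKO library. In both genes the genotypes did not overlap, with most values at or near the floor. Other members had reads in a single library: the 12 reads of Hist2h2be were all in control replicate 3 and the 10 reads of Hist4h4 all in Eef1g-cKO replicate 2, both chosen after their values were seen. The 40 members with reads that did not pass the filter had 211 reads in the control and 231 in the Eef1g-cKO libraries. Of the most abundant members not yet described, the H2A genes Hist1h2ao (2, 3 and 13 reads against 0, 23 and 0) and Hist1h2ap (1, 5 and 9 against 1, 7 and 2) overlapped between genotypes. The H2B genes Hist1h2bb (0, 0 and 5 reads against 0, 6 and 4) and Hist3h2ba (4, 0 and 0 against 10, 0 and 0) overlapped as well.

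Because near-identical copies can exchange reads, the reads of each histone type were also summed, as values without a test. H1 genes summed to 13, 29.4 and 20.7 CPM in control and 77.6, 65.9 and 142 CPM in Eef1g-cKO libraries, with a log2 ratio of means of 2.18. Without Hist1h1e the ratio was 0.87, and the libraries overlapped. H4 genes summed to 22.1, 39.9 and 44.8 CPM against 50.9, 65.1 and 58.7 CPM, without overlap and with a log2 ratio of 0.71. Hist1h4d held 277 of the 452 H4 reads, and without it the libraries overlapped. H2A genes (log2 ratio 0.40) and H2B genes (0.54), with the testis variants included in both, overlapped between genotypes. The mean H2A sum went from 11.8 CPM (control) to 15.5 CPM (Eef1g-cKO), and Hist1h2aa alone from 1.08 to 6.62 CPM. For H2B the mean sum went from 19.6 to 28.6 CPM, and Hist1h2ba alone from 5.7 to 16.7 CPM. In both types the testis variant rose by more than the sum, so the replication-dependent genes together had a lower mean after deletion. H3 genes were nearly absent, with 24 reads over 12 genes: 3, 4 and 12 in the control replicates and 5, 0 and 0 after deletion.

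**Figure D3:**
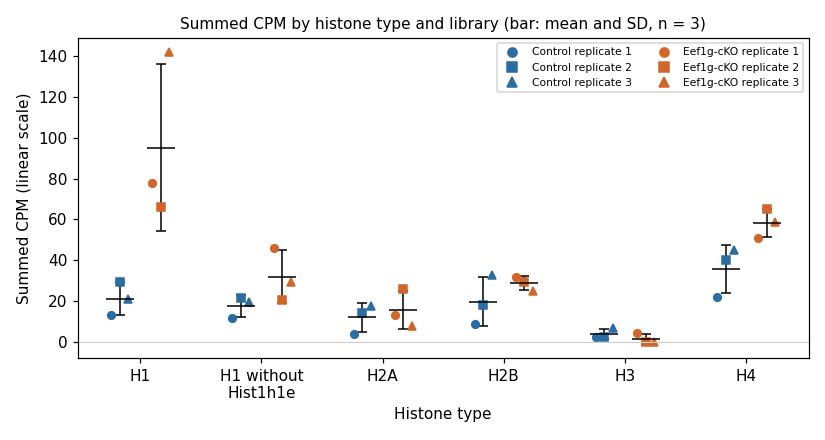
Summed CPM of the members of each histone type in each library on a linear axis, with the mean and SD of each genotype as bars (n = 3), and H1 shown with and without Hist1h1e. H1 and H4 sums do not overlap between genotypes, and the H1 sums overlap once Hist1h1e is left out. The H4 sums would overlap without Hist1h4d, which is not drawn.

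Members differed in how far their sequences could be told apart from those of other genes. A window counted as shared if any other gene's transcript held it on either strand. Genes annotated over the same bases were included, so a share can come from an overlap as well as from a copy. In 24 members more than 50% of all 150-base windows of the transcript also occurred in another gene's transcript, and these members held 120 reads, with 12 of 24 at 0. In 13 members no 150-base window was shared, and these held 582 reads. Hist1h4d, Hist1h1a and Hist1h1c shared 0% of such windows, Hist1h4i 2.1%, Hist1h2ba 11.9% and Hist1h1e 19.5%. The share of Hist1h1e includes its overlap with Hist1h2be or Gm11398 (496 exonic bases). With 75-base windows the shares were 3.7% for Hist1h4d, 0% for Hist1h1a and 6.7% for Hist1h1c. They were 22.4% for Hist1h4i, 33.2% for Hist1h2ba and 28.4% for Hist1h1e. The tested members were thus mostly distinct from other genes at 150 bases, and less so at 75 bases for all but Hist1h1a. Hist1h2ao and Hist1h2ap shared 91.5% and 91.0%, and their reads cannot be assigned with certainty. The H2A genes Hist2h2aa1 and Hist2h2aa2 shared 100% and had 0 reads. In all, 21 members overlapped another gene on the opposite strand and 7 on the same strand.

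Annotated length past the stem-loop was set beside the reads. The annotation ran 1153 bases past the stem-loop in Hist1h1e, 770 in Hist1h4d, 840 in Hist1h1c, 454 in Hist1h4c, 330 in Hist1h4i and 185 in Hist1h1t. Of 23 members with more than 100 such bases, 18 had a read and together they held 798 reads. Of 23 members with 100 or fewer, 16 had a read and they held 188 reads. The median was 4 reads in both sets, so the higher sum came from a few genes. A poly(A) signal, AATAAA or ATTAAA, stood in the last 50 bases of an annotated transcript in 17 members, Hist1h1c, Hist1h4i and Hist1h1t among them, and in 50.2% of all 58797 coding transcripts. Hist1h1e and Hist1h4d had none in that window. Whether the reads came from polyadenylated transcripts was not tested.

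**Figure D4:**
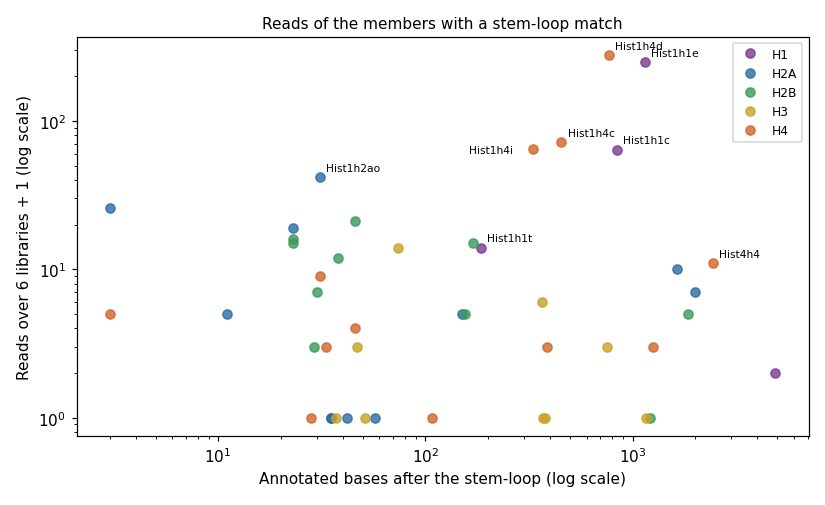
Reads over all 6 libraries plus 1 against the annotated bases after the stem-loop, both on log axes, for the 46 members with a stem-loop match, coloured by histone type. Hist1h4d and Hist1h1e stand highest, with 770 and 1153 bases after the stem-loop, while Hist4h4, with 2445 such bases, had 10 reads.

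Upstream sequences were examined in RefSeq promoters (GRCm38.p6), which matched 60 members. Hist1h2bc, which differed between genotypes without overlap, was not among them. The 250 bases before the annotated start are shown for Hist1h1e and Hist1h1t, an H1 pair of which 1 rose and 1 had few reads, and for Hist1h2ba, whose window overlaps that of Hist1h2aa. Each is written 5′ to 3′ on the gene's strand with AAACACA (the H1 box), CCAAT and TATAAA in capitals, on either strand.
Hist1h1e: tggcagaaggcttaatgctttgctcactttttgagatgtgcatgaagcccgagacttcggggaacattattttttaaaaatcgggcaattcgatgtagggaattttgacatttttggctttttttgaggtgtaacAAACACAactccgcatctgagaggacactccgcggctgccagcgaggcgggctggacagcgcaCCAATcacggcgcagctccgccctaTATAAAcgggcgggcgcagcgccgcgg
Hist1h1t: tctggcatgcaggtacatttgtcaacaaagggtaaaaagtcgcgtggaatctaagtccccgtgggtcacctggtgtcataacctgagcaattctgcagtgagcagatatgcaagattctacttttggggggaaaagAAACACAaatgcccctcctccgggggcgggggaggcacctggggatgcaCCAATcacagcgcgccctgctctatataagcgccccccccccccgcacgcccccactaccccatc
Hist1h2ba: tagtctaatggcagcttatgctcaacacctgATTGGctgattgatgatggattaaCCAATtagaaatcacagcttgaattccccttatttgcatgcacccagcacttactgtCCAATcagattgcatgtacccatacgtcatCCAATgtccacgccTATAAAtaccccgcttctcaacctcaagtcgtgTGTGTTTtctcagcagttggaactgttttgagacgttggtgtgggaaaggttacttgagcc
The windows are chr13:23622559-23622808 on the minus strand, chr13:23695561-23695810 on the plus strand and chr13:23934157-23934406 on the minus strand. AAACACA was found in 4 of 5 H1 genes with a window (Hist1h1e, Hist1h1t, Hist1h1b and Hist1h1c), in 2 of 17 H2A genes, in 2 of 16 H2B genes, and in 0 of 10 H3 and 0 of 12 H4 genes, against 6.25% of all 32851 promoters. CCAAT was found in all 5 H1, 17 H2A and 16 H2B genes with a window, in 8 H3 and 3 H4 genes, and in 33.8% of all promoters. TATAAA was found in 28 of the 60 members and in 12.4% of all promoters. The AAACACA sites of Hist1h2ba and Hist1h2aa are the same bases, read from opposite strands. Other H2A and H2B windows overlap as well, such as those of Hist1h2ag and Hist1h2bj. The counts are therefore of genes and not of separate promoters. Hist1h1e held all 3 motifs and Hist1h1t held AAACACA and CCAAT, and Hist1h1c likewise held AAACACA and CCAAT but not TATAAA. These matches describe the sequence and do not show a bound site.

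Histone genes outside the clusters, the replacement variants, are for the most part made outside S phase as well, from polyadenylated mRNAs. H2afx is known to have a stem-loop mRNA too, and Cenpa peaks late in the cell cycle. Of 11 such genes 10 were tested in edgeR, 2 rose, 2 fell and 6 did not pass at an adjusted p under 0.05, with a median log2 fold change of 0.01. By the same rule 7.8% of all tested genes rose and 6.01% fell. H1f0, a linker histone of slowly dividing cells, had 79.4, 58.3 and 66.1 CPM in control and 145, 135 and 161 CPM in Eef1g-cKO libraries. The groups did not overlap (log2 fold change 1.11 ± 0.25, SE; adjusted p = 0.00567 in edgeR). H1fx, a further linker histone, had 36.6, 32.0 and 39.7 CPM against 59.8, 60 and 110 CPM (log2 fold change 1.05 with an edgeR adjusted p of 0.0459, and 0.0701 with the replicate block). Cenpa, the centromeric H3, had 145, 147 and 203 CPM against 72.8, 112 and 92.7 CPM and fell by 0.83 on the log2 scale (edgeR adjusted p = 0.0303, and 0.0533 with the replicate block). H2afy2, a macroH2A gene, had 27, 17 and 35 reads against 6, 5 and 1 reads and fell by 2.50 (edgeR adjusted p = 0.0439, and 0.0941 with the replicate block). These 3 calls were lost in edgeR when any 1 of the control libraries was left out (adjusted p of 0.112 to 0.161 for H1fx, 0.0669 to 0.209 for Cenpa and 0.0747 to 0.214 for H2afy2). They were also lost without Eef1g-cKO replicate 3 for H1fx (adjusted p = 0.14 in edgeR), without replicate 1 for Cenpa (0.14), and without replicate 2 or 3 for H2afy2 (0.107 and 0.0578). H3f3b, the most abundant of the list, had 2140, 2230 and 2560 CPM against 2970, 3380 and 2770 CPM and did not pass (log2 fold change 0.40, edgeR adjusted p = 0.0548). H3f3b alone thus had a higher CPM than all 67 clustered genes together in every library.

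**Figure D5:**
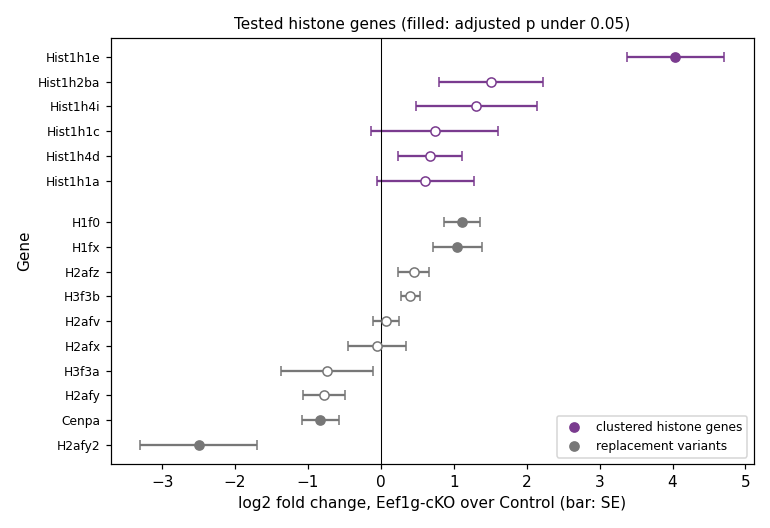
Log2 fold changes of Eef1g-cKO over control with SE for the 6 tested clustered histone genes (purple) and the 10 tested replacement variants (grey), where filled points have an edgeR adjusted p under 0.05. Hist1h1e lies at 4.04, the other clustered genes at 0.61 to 1.51 with open points, and the replacement variants at -2.50 to 1.11.

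Factors that process or control histone mRNA, and genes of S phase, were measured as lists. Of 12 histone mRNA factors 11 were tested, and 1 rose and 0 fell in edgeR at an adjusted p under 0.05. Their median log2 fold change was 0.18, and by this rule 7.8% of all tested genes rose and 6.01% fell. Slbp, which encodes the stem-loop binding protein, had 151, 126 and 141 CPM in control and 284, 304 and 154 CPM in Eef1g-cKO libraries. The lowest Eef1g-cKO value lay next to the highest control value (log2 fold change 0.85 ± 0.24, SE; adjusted p = 0.0216 in edgeR, and 0.053 with the replicate block). The call of Slbp was lost in edgeR without any 1 of the control libraries (adjusted p of 0.0603 to 0.0988) and without Eef1g-cKO replicate 1 or 2 (0.078 and 0.0898). Casp8ap2, the most abundant factor and a cofactor of histone transcription, differed by 0.08 ± 0.18 on the log2 scale (SE; adjusted p = 0.82 in edgeR). Of 19 S phase genes 17 were tested, 1 rose and 2 fell, with a median of -0.06, beside 7.8% of all tested genes that rose and 6.01% that fell by the same rule. Pcna, the sliding clamp of DNA replication, had 323, 311 and 329 CPM against 519, 717 and 717 CPM (log2 fold change 1.02 ± 0.17, SE; adjusted p = 0.000576 in edgeR). Cdt1, a replication licensing factor, had 106, 116 and 94.0 CPM against 36.4, 53.7 and 34.0 CPM and fell by 1.32 (edgeR adjusted p = 0.00611). Cdc6, its partner in licensing, had 46.6, 37.3 and 28.5 CPM against 10.5, 15.3 and 10.8 CPM and fell by 1.57 (edgeR adjusted p = 0.0316, and 0.0632 with the replicate block). The call of Cdc6 was also lost in edgeR without any 1 of the control libraries (adjusted p of 0.064 to 0.169) or without Eef1g-cKO replicate 1 (0.0884).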

How the data were processed

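RNA-seq counts of 6 libraries were analysed, with groups and replicate numbers taken from the sample titles. The deposited values are raw counts of reads per Ensembl gene; the authors made them with fastp, HISAT2 on GRCm38 and featureCounts, and neither the strand setting nor the treatment of reads with several alignments is given in the sources used here. The gene length beside the counts was used per kb only. All 67 members had the same position in GENCODE M21, which supplied exons and transcripts. Library totals and the floor of 3 reads are given in the report, and set the precision of low values.

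Tests were run across all genes with edgeR 4.0.16 in R 4.3.3: filterByExpr (minimum count 10, minimum total 15) kept 8513 genes with 98.13% of all reads, TMM gave the scaling, and genotype was the only term of the robust quasi-likelihood F test. P-values were adjusted by Benjamini-Hochberg over all tested genes. SE was derived from each log2 fold change and its F value. Hist1h1t and Hist1h2aa failed the filter, so their fitted values come from the fit without it. The script was tested on simulated data.

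Alternatives were 3 other scalings (RLE, upper quartile, library totals), other filters, DESeq2 1.42.0, limma-voom (limma 3.58.1), a replicate block, a GC offset and leaving out each library. Same-numbered samples did not deviate together (correlations of -0.0371, 0.0192 and -0.0486), so numbers were not taken to pair samples. Members and lists were chosen with earlier results of these data known. Named genes were the 3 testis variants, members with an adjusted p under 0.05, the 15 most abundant members and, from 3 lists, genes with an adjusted p under 0.05 and the most abundant one; any other is named with a remark. Sequence comparisons used exact matches.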

Additional observations from a re-analysis of the deposited data

How the results depend on the processing

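Hist1h1e was tested in 15 of 16 alternatives and kept its call in all 15, with log2 fold changes of 3.73 to 4.27 over the other settings and 3.41 to 5.49 when a library was left out. With at least 10 reads required in every library it dropped out of the test, so the count of replication-dependent genes called higher was 0, with Hist1h4d the only member left; leaving out a library gave 1 throughout. No replication-dependent gene was called lower under any alternative. With the replicate block Hist1h1e had a log2 fold change of 4.12 (edgeR adjusted p = 0.00137) and Hist1h2ba 1.72 (edgeR adjusted p = 0.214), and the block changed no other call among the members. Hist1h2ba did not pass under any alternative (1.32 to 2.12, and 1.11 to 2.17 when a library was left out). For Hist1h1t and Hist1h2aa only the fits without a filter gave values: 0.29 to 2.66 and 2.04 to 2.91 when a library was left out. DESeq2 without a filter, added after seeing the data, gave 1.37 and 2.58. The median of the replication-dependent genes stayed between 0.47 and 1.05. Library-total scaling shifted the median of all genes by -0.19, upper-quartile scaling by -0.12 and the fit without a filter by -0.25, and the 6 members that passed the low-count filter kept a positive log2 fold change under each. Members below that filter had log2 fold changes of either sign in the fit without it.

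The list counts were small and moved with the setting. Against 2 higher replacement variants, 1 passed with at least 10 reads in every library, library totals, upper-quartile scaling or the replicate block, 3 with DESeq2 or no filter, 4 with limma-voom and 1 to 3 when a library was left out. Against 2 lower, 0 passed with the GC offset or the replicate block, with or without that offset, 1 with limma-voom or no filter, 3 with library totals or upper-quartile scaling, and 0 to 1 when a library was left out. Against 1 higher histone mRNA factor (Slbp), 0 passed with the GC offset, library totals or the replicate block, with or without the GC offset, and 0 to 1 when a library was left out; leaving out a library gave 0 to 1 lower. Against 1 higher and 2 lower S phase genes, limma-voom gave 2 higher, and 1 lower passed with at least 10 reads in every library, no filter or the replicate block, and 0 with the block and the GC offset; leaving out a library gave 1 to 2 of each. The causes were not tested. Depth limits every member below the filter.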

Other observations

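The chromatin proteins that replace histones later, in spermatids, were nearly absent. Of 6 genes of this kind, H1fnt, Tnp2 and Prm2 had 0 reads in every library. Hils1 had 4 reads, all in control replicate 2, Tnp1 had 2 reads in each of control replicates 2 and 3, and Prm1 had 2 reads in Eef1g-cKO replicate 1. Of the markers of other cells, 1 of 4 tested pachytene markers (Piwil1) fell in edgeR at an adjusted p under 0.05, beside 6.01% of all tested genes. Of the 6 blood markers, Cd68 and Csf1r were at 0 in every library, while Ptprc and Adgre1 had at most 2 reads in a library. The globin genes had more: Hbb-bs had 61.1, 4.72 and 3.36 CPM in control and 2.43, 1.18 and 18.5 CPM in Eef1g-cKO libraries, and Hba-a1 had 13.7, 6.82 and 1.12 against 0, 2.35 and 57.1 CPM. The highest Hba-a1 value was in Eef1g-cKO replicate 3, the library with the highest Hist1h1e value, and its part in that value was not tested. Stra8, a gene of cells entering meiosis, fell by 0.69 on the log2 scale (edgeR adjusted p = 0.0265). The other genes of the preleptotene list were below the filter and had higher values in Eef1g-cKO without overlap. Such values were found in 16.4% of all tested genes, which do not include them. Gm4969 had 4.58, 5.25 and 1.12 CPM against 6.47, 8.63 and 12.4 CPM, and Rec8 had 0, 2.62 and 1.12 against 4.04, 3.14 and 3.09 CPM. For Rec8 these were 0, 5 and 2 reads against 5, 8 and 2, so Eef1g-cKO replicate 3 lay under the floor of 3 reads. In an edgeR fit without the filter the adjusted p was 0.503 for Gm4969 and 0.595 for Rec8.

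Histone genes of the clusters that are not annotated as protein coding had few reads. Hist1h2aj had 2 reads, in control replicates 2 and 3, Hist3h2bb-ps had 1 read, in Eef1g-cKO replicate 2, and Hist1h2al had 0 in every library.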
